A study of Homo sapiens with 6 samples.

Results

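Acetylation domains that were continuous in control cells and interrupted after sodium benzoate (SB) were examined in cells labelled HepG2. A domain was taken as a control Kac peak (acetylated lysine) of under 10 kb on chromosomes 1 to 22 and X that shared at least 1 bp with 2 or more separate Kac peaks of the SB-treated cells. These SB Kac peaks are called pieces, and the bases of the domain between neighbouring pieces are called gaps. In the counts of TSSs, Kbz and sequence over pieces, only the part of a piece inside the domain was used. The rule found 1980 domains among 70326 control Kac peaks, of which 69693 were shorter than 10 kb, a share of 2.84%. The members were chosen by the Kac calls of both conditions, so the interruption itself is a description here and not a finding.

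The peaks came from ChIP-seq, in which DNA recovered with antibody-bound histones is sequenced, of HepG2, a cell line derived from human liver cancer, either without SB (control) or after 10 mM SB for 24 h. The series has 6 groups with 1 library each, namely input, Kac and Kbz (benzoylated lysine) from control and from SB-treated cells, and the 3 peak lists used here are control Kac, SB Kac and SB Kbz. The control Kbz library gave no peaks according to the labels, so Kbz had no untreated background measured in the same way. The antibodies were pan antibodies, which recognise the modified lysine on any histone and at any site, and the cells are a bulk culture, so a mark that is weaker in every cell and a mark carried by fewer cells cannot be told apart.

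With 1 library per group there was no replicate error and no test between conditions. The intervals given below are 95% intervals for counting error only, by the Wilson method for shares and from order statistics for medians. Read totals are not part of a peak list, so library depth is unknown and its part in the breaks was not tested. The label was checked against 18 liver genes. A control Kac peak lay within 3 kb of the transcription start site (TSS) of 8 of them, an SB Kac peak at 7 and an SB Kbz peak at 5. None of the 3 lists had a peak there at ALB, APOB, APOH, TTR, SERPINA1, FGA, FGB, AFP, HNF4A or FOXA2. Many defining liver genes were thus without these marks. Over all protein-coding genes, 14583 of 19956 had control Kac at the promoter. Of the gene lists, 7 of 20 liver secreted proteins, 8 of 12 liver transcription factors and 11 of 14 kidney development factors had it. The shares of both lists of factors are near that of all protein-coding genes.

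Acetylation neutralises the positive charge of histone lysines and marks active promoters and enhancers, where broad stretches of acetylated nucleosomes surround the site that transcription factors and RNA polymerase occupy. Benzoylation is an acylation of the same kind of residue, fed by benzoyl-CoA that cells make from benzoate. CpG-rich sequence around a TSS, a CpG island, is the typical setting of a promoter that is active in many cell types, while enhancers are usually poor in CpG.

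Sequences of 3 domains are shown because they hold the contrasts described below, namely a promoter piece beside a gap, a distal piece and a gap that took a TSS with it. They are 200 bases each, read from hg38, 5′ to 3′, with CpG dinucleotides in capitals. The domain at RPL29 (a protein of the large ribosomal subunit) was the strongest TSS domain with exon-free sequence at both places. The first sequence directly precedes its TSS on the minus strand at chr3:51995896-51996095, inside a piece. The second is the middle of the gap, at chr3:51996955-51997154, on the same strand.
RPL29 piece, before the TSS: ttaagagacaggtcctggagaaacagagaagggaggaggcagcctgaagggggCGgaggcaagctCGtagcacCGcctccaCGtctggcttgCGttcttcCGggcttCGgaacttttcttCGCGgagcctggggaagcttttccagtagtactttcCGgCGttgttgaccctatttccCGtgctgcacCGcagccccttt
RPL29 gap: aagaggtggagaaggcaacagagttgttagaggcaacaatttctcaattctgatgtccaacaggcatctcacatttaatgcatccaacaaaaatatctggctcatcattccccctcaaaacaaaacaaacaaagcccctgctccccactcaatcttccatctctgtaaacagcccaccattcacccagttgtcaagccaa
The piece sequence held 13 CpG at 58.5% G+C, and the gap sequence held 0 at 44% G+C. The intergenic domain whose nearest coding gene is BCAS4 had the highest control Kac fold of all domains over 3 kb from a TSS. This domain lay 3142 bp from the nearest TSS, just past that limit. Its stronger piece is shown by its middle at chr20:50790797-50790996, on the plus strand, a sequence added after the values were seen.
BCAS4 piece, middle: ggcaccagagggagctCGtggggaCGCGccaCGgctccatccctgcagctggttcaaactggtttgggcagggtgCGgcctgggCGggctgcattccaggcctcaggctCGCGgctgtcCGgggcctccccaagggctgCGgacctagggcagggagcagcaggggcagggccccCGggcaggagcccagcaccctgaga
It held 11 CpG at 72.5% G+C. The last sequence is the middle of the gap in the domain of LUZP1 (a leucine zipper protein) at chr1:23168256-23168455, on the minus strand, in an intron downstream of the TSS that lay in the gap.
LUZP1 gap: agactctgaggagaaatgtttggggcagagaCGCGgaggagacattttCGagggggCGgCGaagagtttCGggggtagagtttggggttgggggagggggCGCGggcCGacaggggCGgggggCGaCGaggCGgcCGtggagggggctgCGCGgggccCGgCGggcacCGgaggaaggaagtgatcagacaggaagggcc
It held 19 CpG at 69.5% G+C, the most of the sequences shown.

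The domains with the highest control Kac fold among those with a protein-coding TSS inside and a gap of at least 1000 bp illustrate the pattern. The fold is the authors' ratio of reads in the peak over background, averaged over the peak, and its percentile is the rank inside its own list, so folds are not compared between lists. DMKN (dermokine, a secreted protein of the epidermis) had the highest. Its control Kac peak (chr19:35507948-35514844, 6897 bp) had a fold of 7.14, at percentile 99.8. The SB Kac pieces had folds of 8.34 (percentile 99.7) and 2.70 (percentile 29.9), and the gap between them measured 2960 bp. The first piece, which held a start of another DMKN transcript, had Kbz at a fold of 7.67, and the second had none. The canonical TSS of DMKN lay in the gap, and the weak piece lay 437 bp from the nearest start of the gene.

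At RPL29 (chr3:51994496-51998464, 3969 bp) the control Kac fold was 6.96, at percentile 99.7. The piece with the TSS had an SB Kac fold of 7.71 (percentile 99.4) and reached beyond the domain to a length of 4015 bp. The other piece, upstream of the gene, measured 323 bp at a fold of 3.07 (percentile 54.1), and the gap between them measured 1916 bp. The Kbz peak stood on the TSS piece at a fold of 11.1, percentile 99.9 of the Kbz list, and ended before the gap. The gap began 202 bp upstream of the TSS.

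SRSF10 (a splicing regulator) had a control Kac fold of 5.78 at percentile 97.8 (chr1:23977517-23985674, 8158 bp). Its TSS piece measured 5393 bp with an SB Kac fold of 6.99 (percentile 98.6) and Kbz at a fold of 7.03, and its other piece measured 1135 bp at a fold of 2.86 (percentile 42.9) with no Kbz. Thus a long strong piece held the TSS and Kbz, and a short weak piece lay 3495 bp from the nearest start of the gene.

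In a pair of other domains Kbz lay on both pieces. The domain of DDX39B (an RNA helicase of mRNA export), ATP6V1G2 (a proton pump subunit) and NFKBIL1 had a control Kac fold of 6.38 at percentile 99.1 (chr6:31539518-31549170, 9653 bp). The DDX39B piece had an SB Kac fold of 7.31 (percentile 99) and the piece with the other starts 4.08 (percentile 79.0). Both pieces carried Kbz, at folds of 7.11 and 3.66, and the gap of 2375 bp had none. At MED22 (a Mediator subunit) and RPL7A (a ribosomal protein), which share a promoter region, the control Kac fold was 5.87 at percentile 98.1. Their TSS piece had an SB Kac fold of 6.67 (percentile 97.9) and the other piece 2.72 (percentile 31.8). Kbz marked both pieces at folds of 7.29 and 3.37, and the second Kbz peak entered the gap of 1826 bp.

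In the remaining 3 domains the TSSs inside belonged to transcripts other than the canonical one. At CYGB (cytoglobin) and PRCD the control Kac fold was 6.48, with SB Kac pieces at 6.39 and 2.65. At BMERB1 it was 6.45 with pieces at 2.78 and 6.29, and at GSN (gelsolin, which severs actin filaments) 6.08 with pieces at 2.90 and 6.18. In each of these domains the stronger piece had Kbz and the weaker piece had none, and the gaps measured 1387, 1320 and 1337 bp. The map of these 8 domains shows the same layout in most of them, with a strong piece under Kbz and a weak one at the far side of a gap.

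**Figure D1:**
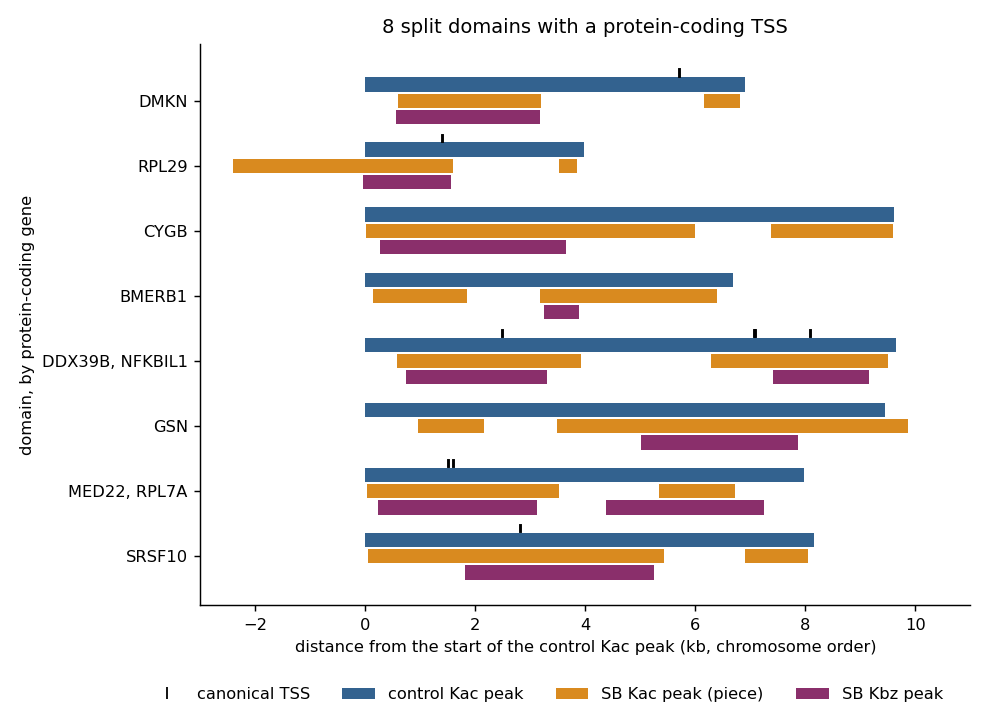
The 8 split domains with the highest control Kac fold among those with a protein-coding TSS inside and a gap of at least 1000 bp, drawn to scale from the start of the control Kac peak. The horizontal axis gives distance in kb, bars are control Kac, SB Kac and SB Kbz peaks and ticks are canonical TSSs; Kbz lies on the stronger SB Kac piece in each, and at MED22 and RPL7A a Kbz peak also enters the gap.

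Next, the number of split domains was read beside the same rule with the lists exchanged. Of the 44883 control Kac peaks under 10 kb that met any SB Kac peak, 42903 met 1 piece and 1980 met more, a share of 4.41% (4.23 to 4.61). Among the members 1891 had 2 pieces, 87 had 3 and 2 had 4. In the other direction, 1705 of 62736 SB Kac peaks under 10 kb (2.72%) lay on 2 or more control Kac peaks, 3.76% (3.59 to 3.94) of the 45356 that met any. Interruptions were therefore nearly as frequent in the direction from SB to control as in the direction of the rule, and the intervals of the shares over peaks that met a peak did not overlap. The share of split peaks grew with length in both directions. No peak under 1 kb could be split, since neighbouring pieces lie at least 1121 bp apart, and the share of control Kac peaks was 2.50% at 2 to 3 kb, 14.2% at 4 to 5 kb and 41.4% (37.7 to 45.3) at 8 to 10 kb. In the exchanged direction the shares at these lengths were 2.70%, 13.5% and 39.1% (34.9 to 43.4), with overlapping intervals. The intervals were apart only at 6 to 8 kb, at 32.2% (29.9 to 34.7) against 27.1% (24.7 to 29.7).

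**Figure D2:**
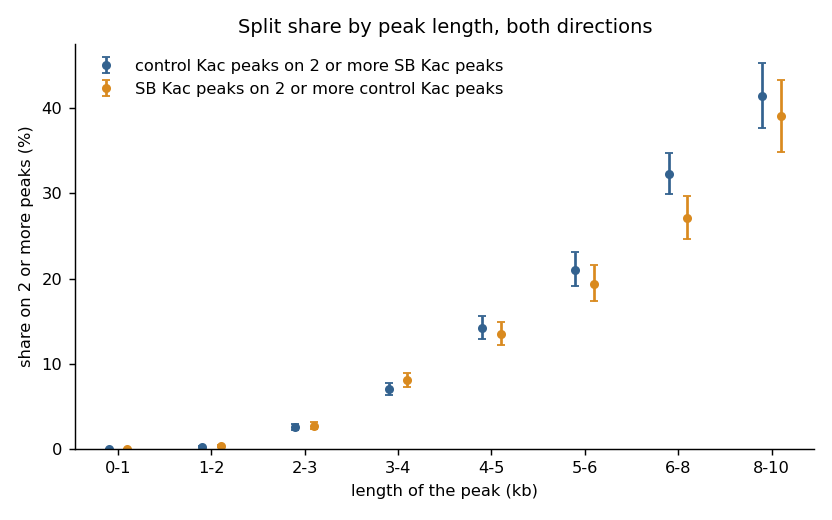
Share of peaks that met 2 or more peaks of the other Kac list, among those that met any, by length of the peak in kb. Points are shares in percent and bars are Wilson 95% intervals for counting error; both directions climb from 0% under 1 kb to 41.4% for control Kac and 39.1% for SB Kac peaks of 8 to 10 kb.

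Split domains had a median length of 5169 bp, with quartiles of 3833.5 and 6887.25 bp and a range of 1303 to 9999 bp. The members nearest the length limit measured 9951, 9990 and 9999 bp, and the peaks just outside it with 2 or more pieces 10009, 10024 and 10032 bp. Of 633 control Kac peaks of 10 kb or more, 332 met 2 or more SB Kac peaks. The 4051 pieces had a median length of 1393 bp, and 37.0% of them were under 1 kb. A piece reached beyond the domain in 72.4% of domains, and 244 domains (12.3%) shared a piece with another domain, so neighbouring domains are not independent. By bases, 56.8% of the domains lay in pieces, 31.9% in gaps and 11.3% in edges outside the outermost pieces.

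Lengths of the pieces in a pair were compared over their bases inside the domain, unlike the piece lengths above, which are whole. In the 1891 domains with 2 pieces, the shorter measured a median of 0.366 of the longer, and it was under 50% of the longer in 1193 (63.1%). The weaker piece stood at a median percentile of 35.8 of SB Kac fold and the stronger at 70.2, an order that sorting the pieces fixes. In the 1625 split SB Kac peaks with 2 pieces these values were 0.353, 35.8 and 74.04. The domains themselves stood at a median percentile of 69.4 in the control Kac list.

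The 2071 gaps had a median of 1447 bp (1425 to 1471), quartiles of 1253.5 and 1813.5 bp and a range of 1121 to 5958 bp. Of the gaps, 54.3% were under 1500 bp and 3.91% were 3000 bp or longer. Neighbouring peaks were never closer than 1121 bp in any of the 3 lists, so the lists cannot show a shorter break. In split SB Kac peaks the 1790 gaps had a median of 1408 bp (1386 to 1429), and 2.85% were 3000 bp or longer. The bulk of the gaps was thus close to the smallest break that these lists can hold, in both directions.

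**Figure D3:**
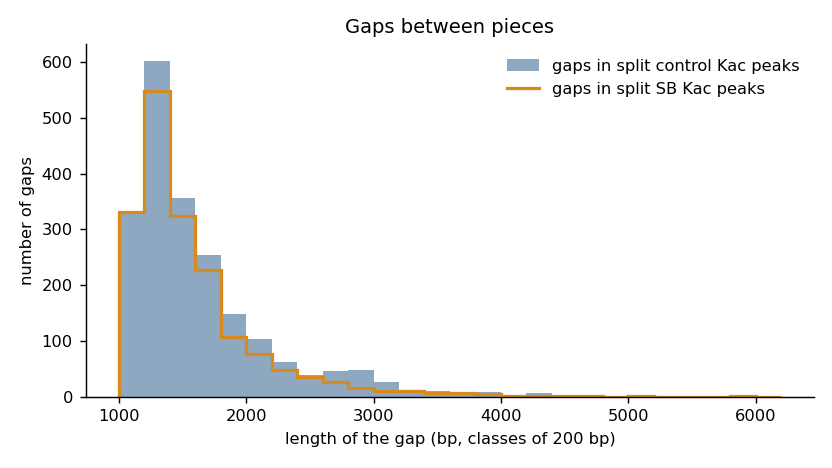
Number of gaps by length in classes of 200 bp, for split control Kac peaks (filled) and for split SB Kac peaks (line). Both are highest between 1200 and 1400 bp, with 602 and 547 gaps, and thin out beyond 3000 bp.

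The domains with the longest gaps were mostly far from promoters. The longest gap, 5958 bp, lay in an intron of TTLL5 (chr14:75859874-75869527; nearest canonical coding TSS TGFB3). Its control Kac fold was 3.40 at percentile 62.3, and its pieces had SB Kac folds of 2.99 and 3.32 with no Kbz. In an intron of LRMDA the gap measured 5226 bp, between pieces at 3.96 and 2.38, again with no Kbz. At the lncRNA gene LINC01778 (nearest canonical coding TSS LAPTM5) the gap measured 5186 bp, and the piece at 5.21, which held the TSS, had Kbz at a fold of 3.91. In intergenic sequence with PIK3R1, a regulatory subunit of PI3 kinase, as the nearest canonical coding TSS, the gap measured 4924 bp and the stronger piece, at 3.84, had Kbz at a fold of 3.0. At ELF3 (an epithelial ETS factor) the gap of 4503 bp began downstream of the canonical TSS, and neither its TSS piece at 2.56 nor its piece at 3.99 had Kbz. Kbz was absent from 3 of these 5 domains, and from 42.6% of all split domains.

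The most divided domains were an intronic one of KCNN3 (a calcium-activated potassium channel) and one at FSD2 and WHAMM, with 4 pieces each. At KCNN3 (chr1:154837475-154846982) the control Kac fold was 2.93 at percentile 39.6, and the pieces had SB Kac folds of 2.74, 2.28, 2.39 and 2.36. Kbz lay on the second piece alone, at a fold of 2.44, percentile 0.195 of the Kbz list. At FSD2 and WHAMM, a nucleation factor of actin at the Golgi, the pieces had folds of 2.69, 2.39, 3.54 and 3.22, and Kbz was on the last pair, which held the starts of FSD2 and WHAMM. AXL (a receptor tyrosine kinase) had 3 pieces with folds of 3.11, 2.98 and 7.24. The canonical TSS lay in the first, at percentile 56.3, and Kbz with a fold of 7.36 lay on the last, which held a start of another AXL transcript. In intergenic sequence near LAMC3, a laminin chain, 3 pieces stood at 3.27, 3.06 and 5.14 with Kbz on the outer ones, and an intronic domain of GRK5, a receptor kinase, had 3 pieces at 2.61 to 2.81 with no Kbz.

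It was then asked where the pieces lay relative to TSSs. Of the 1980 split domains 887 held the TSS of an annotated transcript, 44.8% (42.6 to 47.0), against 23.8% of all control Kac peaks under 10 kb and 33.0% (32.6 to 33.5) of those with 1 piece. Split domains were longer than the others, and within classes of length the order turned. At 2 to 4 kb, 29.8% (26.0 to 33.8) of split domains and 51.2% (50.3 to 52.1) of peaks with 1 piece held a TSS. At 4 to 6 kb the shares were 46.3% (42.7 to 50.05) and 59.4% (57.8 to 61.0), and at 6 to 10 kb 55.8% (52.1 to 59.3) and 62.5% (59.9 to 65.1). Control Kac fold moved with this, since split domains stood lower in the list at each length, at median percentiles of 56.4, 68.7 and 77.1 against 74.8, 78.9 and 81.9. Inside the highest of 4 equal classes of control Kac fold the share with a TSS was still lower for split domains at 2 to 4 kb, 46.0% (37.4 to 54.7) against 69.2% (68.0 to 70.3), and at 4 to 6 kb, 49.6% (43.7 to 55.6) against 69.8% (67.7 to 71.8). At 6 to 10 kb the intervals overlapped, at 61.3% (56.5 to 66.0) and 66.8% (63.7 to 69.8). In the third class at 2 to 4 kb split domains were also lower, at 33.5% (27.0 to 40.8) against 43.8% (42.1 to 45.4). Elsewhere in the lower classes of fold the intervals overlapped. Examples are 15.6% against 15.1% in the lowest class at 2 to 4 kb and 39.02% against 33.5% in the second class at 4 to 6 kb. Over the 12 classes of length and fold, split domains were lower with no overlap of the intervals in 3, and the intervals overlapped in the other 9. Within 3 kb of a TSS lay 57.9% (55.7 to 60.1) of split domains, against 41.5% of all control Kac peaks under 10 kb, and 476 domains (24.0%) were over 10 kb from any TSS.

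In the domains that held a TSS, the share of start sites in pieces was above the share of bases in pieces over all split domains. The base shares of the 887 domains alone were not taken, and start positions in the same domain are not independent. Of 4357 start positions 81.6% (80.4 to 82.7) lay in pieces, 14.5% (13.4 to 15.5) in gaps and 3.92% in edges, where pieces made up 56.8%, gaps 31.9% and edges 11.3% of the bases of all split domains. In 741 of the 887 domains (83.5%; 81.0 to 85.8) a TSS lay in a piece, in 639 of them in a single piece and in 102 in 2 or more. In the other 146 every TSS lay in a gap or an edge. In split SB Kac peaks, where the gaps are gaps of the control list, 68.8% (67.5 to 70.1) of start positions lay in pieces and 27.2% (26.0 to 28.5) in gaps. For canonical TSSs of protein-coding genes the shares in gaps were 13.9% (11.3 to 17.1; 77 of 552) in split control Kac peaks and 33.2% (29.8 to 36.8; 231 of 696) in split SB Kac peaks. The share of start sites in gaps was thus lower where SB Kac was the interrupted list than where control Kac was, with intervals that did not overlap.

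The gap showed no strong preference for a side of the gene. Among 339 domains with 1 canonical coding TSS, lying in a piece, gaps were only upstream in 182 (53.7%; 48.4 to 58.9), only downstream in 155 (45.7%; 40.5 to 51.04) and on both sides in 2, and these intervals overlapped. The median distance from the TSS to the gap was 1125.5 bp (914 to 1336) upstream and 1539 bp (1340 to 1758) downstream. By midpoints, 43.8% of gaps lay within 3 kb of a TSS, 31.7% in introns, 22.5% in intergenic sequence and 1.98% in exons. For pieces these shares were 43.1%, 31.7%, 22.9% and 2.30%, close to those of gaps, so gaps and pieces differed in their place relative to the exact start and little in the class of annotation.

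Peak coverage was then read around the 552 canonical coding TSSs in split domains. Control Kac covered every one of them, since they were chosen inside control Kac peaks, and lower SB Kac around them follows from the rule, which asks for a gap in SB Kac. Kbz was not used by the rule. At the TSS 83.3% were under an SB Kac peak and 57.2% under Kbz. Around the 10707 canonical coding TSSs in control Kac peaks that met 1 SB Kac peak these shares were 96.9% and 78.7%. At 2 kb upstream control Kac covered 67.2%, SB Kac 37.5% and Kbz 10.51%, and at 2 kb downstream the values were 61.1%, 40.0% and 9.60%. For the TSSs in peaks with 1 SB Kac peak, Kbz was at 5.98% and 7.10% at these distances. At 5 kb upstream, where many positions are outside the domain, control Kac was at 29.2% and SB Kac at 23.2%.

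**Figure D4:**
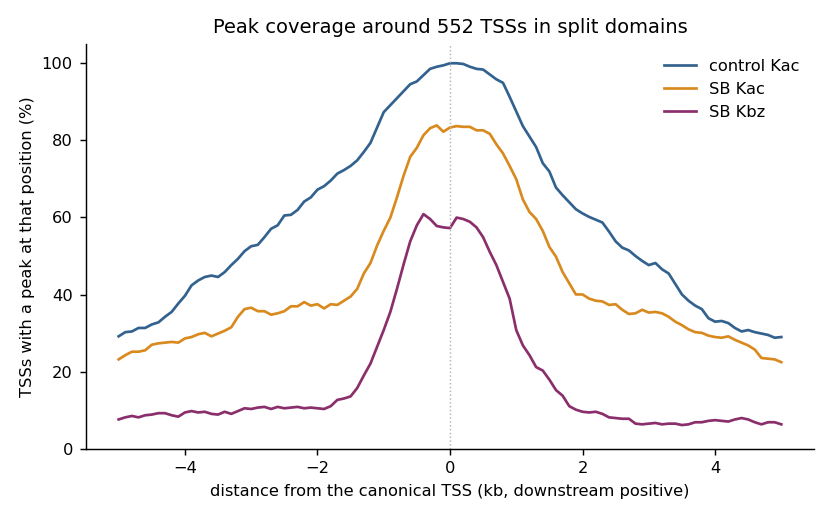
Share of the 552 canonical TSSs of protein-coding genes in split domains that had a control Kac, SB Kac or SB Kbz peak at each distance, in kb with downstream positive. Control Kac is at 100% at the TSS by selection, SB Kac falls from 83.3% there to 37.5% at 2 kb upstream and 40.0% at 2 kb downstream, and Kbz from 57.2% to 10.51% and 9.60%.

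In a minority of domains the gap took the start site. Besides DMKN, the domains of highest control Kac fold with a canonical coding TSS in a gap were those of CASP8, GPR84, ATP2A1 and LUZP1. At CASP8 (an initiator caspase of apoptosis; chr2:201254589-201263001) the control Kac fold was 5.17 at percentile 94.6. The pieces had SB Kac folds of 7.98 (percentile 99.6) and 3.84 (percentile 75.1), each held another start of CASP8, and each had Kbz, at folds of 7.87 and 2.91. The canonical TSS lay in the gap of 2726 bp. At GPR84 (a receptor for medium-chain fatty acids) the control Kac fold was 5.12 at percentile 94.3. Its main piece, which held a start of another annotated gene, stood at 5.27 with Kbz at 4.72, the other piece measured 291 bp at 2.55, and the TSS lay in the gap of 1438 bp, 101 bp from the small piece. At ATP2A1 (a calcium pump of muscle) the control Kac fold was 4.99 at percentile 93.3, and the pieces had folds of 2.87, 6.91 and 4.50, with Kbz on the last pair, the first of which held another ATP2A1 start. At LUZP1 the control Kac fold was 4.98 at percentile 93.2, with pieces at 3.26 and 6.45. Its TSS lay in the gap of 1204 bp, 102 bp from the stronger piece, which carried Kbz at a fold of 5.51. Kbz was present on a piece of each of these 5 domains, and a marked piece held another annotated start in each but LUZP1. Of all 259 split domains above percentile 90 of control Kac fold, 94.6% (91.1 to 96.8) had Kbz. This share was not taken for peaks with 1 SB Kac peak. In the highest of 4 equal classes of control Kac fold, those peaks had Kbz in 89.3% at 2 to 4 kb. They had it in 91.6% at 4 to 6 kb and 92.6% at 6 to 10 kb. Split domains of that class had 74.2%, 82.5% and 89.8% at these lengths.

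The CpG content of pieces and gaps depended on whether they held a TSS. CpG observed over expected, which is near 1 in CpG islands and low in most of the genome, had a median of 0.447 (0.409 to 0.475) in the 843 pieces with a TSS and 0.218 (0.214 to 0.222) in the 3208 without. It was 0.301 (0.282 to 0.318) in the 283 gaps with a TSS and 0.236 (0.230 to 0.242) in the 1788 without. Gaps were thus below pieces where a TSS was inside and slightly above them where none was. A value of 0.6 or more was found in 28.8% (25.9 to 32.0) of TSS pieces and in 19.1% (14.9 to 24.1) of TSS gaps, against 39.1% of all SB Kac peaks with a TSS. TSS gaps in split SB Kac peaks were richer, with a median of 0.744 (0.670 to 0.797) and 58.8% (54.0 to 63.4) at 0.6 or more. In the 300 bases around canonical coding TSSs, from 250 before to 50 after, 68.8% (57.8 to 78.1) of those in gaps and 80.9% (77.0 to 84.2) of those in pieces reached 0.6, with overlapping intervals, and 67.4% of every canonical coding TSS did. For TSSs in the gaps of split SB Kac peaks this share was 93.5% (89.6 to 96.0). CpG-rich starts thus made up a lower share of the starts in gaps of SB Kac than of those in gaps of control Kac, again with no overlap of the intervals.

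Motifs were searched in windows of 300 bases at the middle of each region of at least that length. This left out 440 of the 3208 pieces without a TSS and 9 of the 843 with one, but no gap. The AP-1 motif TGANTCA was in 14.0% (12.7 to 15.3) of pieces without a TSS and in 8.11% (6.93 to 9.47) of gaps without a TSS, on either strand, against 12.5% of all SB Kac peaks without a TSS. The GC box GGGCGG was in 37.6% (34.4 to 41.0) of TSS pieces and 25.8% (21.0 to 31.2) of TSS gaps, against 38.8% of all SB Kac peaks with a TSS. For the AP-1 motif in TSS regions the shares were 8.48% (5.77 to 12.3) of gaps and 7.67% (6.06 to 9.68) of pieces, with overlapping intervals, and 6.65% of the list. For the GC box in regions without a TSS they were 7.44% (6.31 to 8.75) of gaps and 11.02% (9.91 to 12.2) of pieces, and 9.33% of the list. Gaps were thus below pieces in the GC box in both classes, and in AP-1 only where no TSS was inside. In gaps of split SB Kac peaks AP-1 was in 4.88% (3.18 to 7.41) with a TSS and 8.62% (7.25 to 10.2) without. The GC box was there in 54.1% (49.3 to 58.9) and 9.71% (8.26 to 11.4). The AP-1 share of gaps without a TSS was thus similar in both directions.

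Finally, it was asked whether Kbz marked a piece. The SB Kbz list came from another library than the lists of the rule, but from the same treatment as the pieces. Of the split domains 1136 overlapped a Kbz peak, 57.4% (55.2 to 59.5), against 29.7% of all control Kac peaks under 10 kb and 44.9% (44.5 to 45.4) of those with 1 piece. Again the order turned within classes of length. The shares were 36.6% (32.6 to 40.9) of split domains against 61.9% (61.1 to 62.8) of peaks with 1 piece at 2 to 4 kb, 57.7% (54.0 to 61.3) against 74.8% (73.3 to 76.2) at 4 to 6 kb, and 74.3% (71.0 to 77.4) against 82.3% (80.2 to 84.3) at 6 to 10 kb. Inside the highest class of control Kac fold the difference was smaller, at 74.2% (65.8 to 81.1) against 89.3% (88.5 to 90.03), 82.5% (77.5 to 86.5) against 91.6% (90.3 to 92.7), and 89.8% (86.4 to 92.4) against 92.6% (90.7 to 94.1), where the last intervals overlapped. In the third class it was also lower with intervals apart at 2 to 4 kb, 40.3% (33.4 to 47.7) against 50.8% (49.1 to 52.5). The same held at 4 to 6 kb, 52.2% (46.3 to 58.1) against 61.4% (58.4 to 64.3). At 6 to 10 kb the third class had 65.02% against 69.4%, with overlapping intervals. In the lowest and second classes all intervals overlapped. Examples are 15% against 17.3% in the second class at 2 to 4 kb and 26.02% against 28.5% at 4 to 6 kb. Over the 12 classes of length and fold the share was lower in split domains with no overlap of the intervals in 4, and the intervals overlapped in the other 8. At like length alone the share with Kbz was lower in split domains than in uninterrupted peaks, and their lower control Kac fold moved with this.

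Within a domain Kbz usually stood on 1 piece. In 912 domains (46.1%) exactly 1 piece overlapped Kbz, in 222 (11.2%) 2 or more did, and in 205 every piece did. In 846 domains no piece had Kbz, and in 2 of these Kbz was in the domain without touching a piece. In the 912 domains with 1 marked piece, the mark was on the piece of highest SB Kac fold in 841 (92.2%; 90.3 to 93.8) and on the longest piece in 789 (86.5%; 84.1 to 88.6). Where such a domain also had a TSS in exactly 1 piece, the mark was on the TSS piece in 371 of 397 (93.5%; 90.6 to 95.5). A further 416 domains had 1 marked piece and held no TSS at all, and there the mark was on the strongest piece in 372 (89.4%; 86.1 to 92.0). The layout was similar in split SB Kac peaks, of which 63.0% had Kbz, as did 37.1% of their pieces. With 1 marked piece, the mark was on the piece of highest control Kac fold in 732 of 843 (86.8%; 84.4 to 88.9). It was on the longest piece in 85.3% (82.7 to 87.5). Where exactly 1 piece held a TSS, it was on that piece in 399 of 441 (90.5%; 87.4 to 92.9).

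Over pieces, 1360 of 4051 had Kbz, 33.6% (32.1 to 35.0), and 33.8% of all SB Kac peaks did. Pieces were counted over their bases inside the domain and peaks of the list over their whole length. The shares of pieces and of the list given here are therefore not strictly alike. The share depends on the threshold, since it was 50.4% at a −log10 q of 5 or more and 72.2% with 15000 peaks from each list. Of the TSS pieces 615 of 843 had Kbz, 73.0% (69.9 to 75.8), with 75.4% of all SB Kac peaks with a TSS. Of the pieces without a TSS 745 of 3208 did, 23.2% (21.8 to 24.7), with 19.1% of all SB Kac peaks without a TSS. The share depended little on distance once the TSS was outside the piece. It was 28.7% (24.5 to 33.3) within 1 kb of a TSS, 21.3% (18.4 to 24.5) at 1 to 3 kb, 23.7% (21.2 to 26.5) at 3 to 10 kb and 21.97% (19.6 to 24.5) beyond 10 kb.

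TSS pieces were also stronger, at a median percentile of 78.4 (76.4 to 79.5) of SB Kac fold against 46.6 (45.4 to 48.2), and longer, at 2654 bp against 1158 bp. Within 4 equal classes of SB Kac fold over the list the share with Kbz was still higher for TSS pieces. It was 12.0% (5.62 to 23.8) against 3.31% (2.27 to 4.81) in the lowest class, 20.7% (13.6 to 30.0) against 7.65% (6.13 to 9.51) in the second, 57.2% (50.7 to 63.4) against 27.8% (25.1 to 30.6) in the third and 97.2% (95.3 to 98.4) against 78.3% (74.4 to 81.8) in the highest, with no overlap of intervals in any class. Among pieces without a TSS, those with Kbz had a median CpG observed over expected of 0.266 (0.258 to 0.279) and those without 0.203 (0.198 to 0.209).

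**Figure D5:**
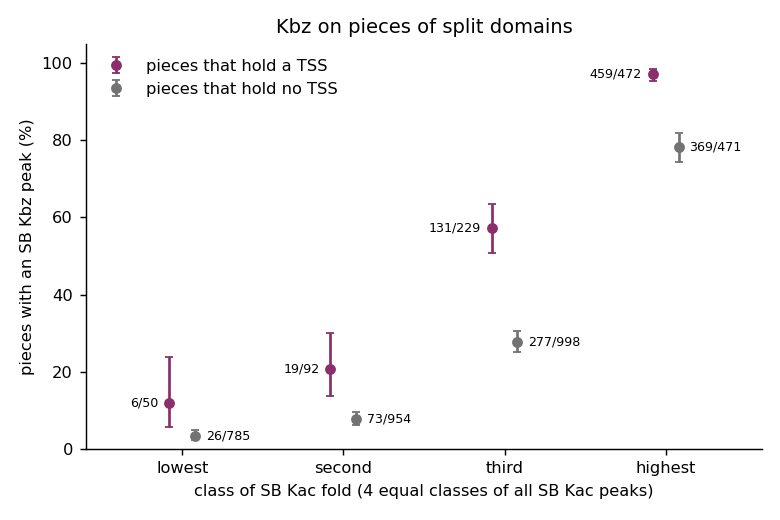
Share of pieces with an SB Kbz peak, in percent, for pieces with and without a TSS, by 4 equal classes of SB Kac fold over the whole SB Kac list. Bars are Wilson 95% intervals for counting error and labels give marked pieces over all pieces; TSS pieces are higher in each class, from 12.0% against 3.31% to 97.2% against 78.3%.

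Gaps held little Kbz, but by the rule they hold no SB Kac peak, and in pieces Kbz rose with SB Kac fold. Kbz over other sequence without SB Kac was not measured, so low Kbz cannot be called particular to gaps. Of the Kbz bases inside split domains 96.1% lay in pieces, 2.96% in gaps and 0.962% in edges. Kbz covered 44.8% of the bases of TSS pieces, 17.4% of other pieces and 1.49% of gaps. A Kbz peak touched 178 of 2071 gaps, 8.59% (7.46 to 9.88), in 3 of them with a Kbz peak wholly inside the gap and in 12 with a Kbz peak that bridged it. In split SB Kac peaks the gaps of the control list were touched in 331 of 1790, 18.5% (16.8 to 20.4), and covered over 5.14% of their bases. These latter gaps lie inside SB Kac peaks, whereas the gaps of split control Kac peaks lie outside them. Of the gaps with a TSS, 35 of 283 had Kbz, 12.4% (9.03 to 16.7), and of those without, 143 of 1788, 8.0% (6.83 to 9.35).

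Of the 833 split domains over 3 kb from any TSS, 362 overlapped Kbz, 43.5% (40.1 to 46.8), and 56.5% did not. Above percentile 90 of control Kac fold, 94 of 103 overlapped it, 91.3% (84.2 to 95.3). The examples are the 5 of highest control Kac fold with a gap of at least 1000 bp. The first of them, near BCAS4, lay only 3142 bp from the nearest TSS. In the intergenic domain near BCAS4 (chr20:50788125-50791752) the control Kac fold was 7.61 at percentile 99.9, the pieces had SB Kac folds of 5.73 and 8.86, and both carried Kbz, at folds of 3.30 and 9.0. The gap of 1150 bp between them had none. In an intron of BTBD16 the control Kac fold was 7.21, the pieces stood at 5.81 and 3.14 and both had Kbz, at 5.0 and 3.04. A second intronic domain of GRK5 had a control Kac fold of 7.11, a piece of 5200 bp at 6.58 with Kbz at 6.66, and a piece of 753 bp at 2.64 without. In an intron of CORO2B, a coronin that binds actin, the control Kac fold was 7.0, and Kbz at 6.71 lay on the piece at 5.64 and not on that at 2.78. In intergenic sequence with FGFRL1 as the nearest canonical coding TSS the control Kac fold was 6.95, both pieces (5.01 and 6.78) had Kbz, at 5.59 and 6.80, and the second Kbz peak began in the gap. Kbz was on every piece in 3 of these 5 domains, which were chosen for the highest control Kac fold. It was on every piece in 40 of 833 split domains over 3 kb from a TSS, 4.80% (3.55 to 6.47), and in 17 of the 103 of them above percentile 90 of control Kac fold, 16.5% (10.6 to 24.9).

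The strongest Kbz on exactly 1 piece over 3 kb from any TSS was found in intergenic sequence. The nearest canonical coding TSS was that of ACTG1, 34791 bp away, and a start of BAHCC1 lay 5521 bp from the unmarked piece. There the Kbz fold was 11.9, percentile 99.97 of its list, on a piece of 11287 bp with an SB Kac fold of 5.30, while the piece of 730 bp at 2.85 had none. The control Kac peak (chr17:81468080-81478008) had a fold of 4.15. In COL11A2, a fibrillar collagen gene, Kbz at 10.0 lay on the piece at 7.42 and not on that at 2.89. An intronic domain with IER5L as the nearest canonical coding TSS had Kbz at 8.57 on a piece at 8.51 beside one at 3.06 without. In an intron of SH3PXD2B, a scaffold of podosomes, Kbz at 8.37 lay on a piece at 8.88, and the piece at 2.79 across a gap of 2885 bp had none. In intergenic sequence with TAF1B as the nearest canonical coding TSS, Kbz at 7.91 lay on the piece at 6.06 and not on that at 2.84. In each of these 5 domains the marked piece was the stronger one in SB Kac.

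Among gene groups, 552 of 11551 protein-coding genes with the canonical TSS in a control Kac peak under 10 kb lay in a split domain, 4.78%. None of the 4 genes that the study followed up did, and none of the histone acetyltransferases (of 8 with such a peak), histone deacetylases and sirtuins (of 14), cholesterol genes (of 18), stress response genes of the endoplasmic reticulum (of 12), liver secreted proteins (of 3) or liver transcription factors (of 5). At most 1 or 2 members of the other lists did. Of 28 cytosolic ribosomal protein genes of the list with such a peak 2 were split, RPL7A and RPL18, and RPL29 was not on that list. RPL18 had a control Kac fold of 4.92 at percentile 92.6, and both of its pieces had Kbz. YEATS4, a reader of acylated lysine, was the only one of 11 acyl-lysine readers, with a control Kac fold of 5.64 at percentile 97.3 and Kbz on both pieces. SLC2A1, the glucose transporter GLUT1, had a fold of 3.62, HSPB1, a small heat shock protein, 3.72, FOSB, an AP-1 subunit, 3.73 and SIX2, a factor of nephron progenitors, 4.35, each with Kbz on 1 of 2 pieces. SPI1, a factor of myeloid cells, stood at 3.80 with Kbz on both pieces. The canonical TSS lay in a piece in each of these 8 domains.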

How the data were processed

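The members and gene lists were chosen with earlier results of these data known. The authors digested chromatin with micrococcal nuclease, sequenced single reads, aligned them to hg38 with Bowtie2 2.2.6, kept uniquely mapped reads, removed duplicates with SAMtools 0.1.19 and called peaks per library with MACS2 2.1.1 at a stated FDR of 0.01. The lowest deposited −log10 q was 1.31. The deposited lists are in the broad format, and its settings are not given in the sources used here. The deposited score was not used, the authors' fold (a linear ratio over background) ranked peaks within a list, and the deposited −log10 p and −log10 q served as alternative thresholds.

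Lists held 70326 control Kac, 63282 SB Kac and 24308 SB Kbz peaks on chromosomes 1 to 22 and X. The 3 control Kac peaks elsewhere were not used. TSSs came from GENCODE 44 (every transcript; canonical, 1 per gene, where said), and a TSS window reached 3 kb to each side. Named domains were those of highest control Kac fold with a gap of at least 1000 bp (8 with a coding TSS, 5 over 3 kb from a TSS), 5 with most pieces, 5 with the longest gap, 5 of highest fold with a canonical coding TSS in a gap, 5 of highest Kbz fold on 1 distal piece, and members of the gene lists. Sequences came from the hg38 reference, which carries no repeat mask, so a planned repeat share was not run. A further sequence is not reported here. Python 3.11.15, numpy 2.4.6, scipy 1.17.1 and matplotlib 3.10.9 were used. On simulated lists 601 of 601 planted split domains were found and 0 others, and 0 of 2 counts on the real lists differed from bedtools 2.31.1. With 1 library per group no test was run.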

Additional observations from a re-analysis of the deposited data

How the results depend on the processing

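The 10 results were recomputed 79 times with 1 choice changed at a time. In 38 the value stayed in its interval or, for a count, within 1.5 times, and in 41 it moved further. Joining peaks within 2 kb was chosen after seeing the data, because joining within 1 kb and a smallest gap of 500 bp left all 20 values as they were, neighbours being at least 1121 bp apart. No paired analysis was possible because there is a single library for every group, and there was no replicate to leave out. Depth is unknown and limits every count of breaks. Except where fewer peaks, start sites or joined peaks follow from the alternative itself, the cause was not tested.

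Raising the threshold to a −log10 q of 5 or more gave 137 split domains and 111 in the exchanged direction, and 15000 peaks from each list gave 81 and 51, against 1980 and 1705 over all peaks. The split share fell to 0.994% and 0.772%, and the median gap was 1489 bp in both. The share with a TSS was 66.4% and 69.1%, that with a TSS in a piece 97.8% and 98.2%, and the share with Kbz 74.5% and 93.8% of domains, 50.4% and 72.2% of pieces, 67.0% and 83.8% of TSS pieces and 38.5% and 62.5% of other pieces. TSS pieces stayed above other pieces, but at a −log10 q of 5 or more by 67.0% against 38.5%. At a −log10 q of 2 or more the split share was 3.69%, the share with a TSS 48.04% and with a TSS in a piece 86.6%.

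With peaks within 2 kb joined there were 1203 split domains, 903 in the exchanged direction and a split share of 3.17%, and Kbz was on 35.1% of pieces, 68.3% of TSS pieces and 26.1% of others. With at least 50% of each piece inside the domain the split share was 3.99%, and Kbz was on 61.2% of domains, 36.9% of pieces and 25.8% of other pieces. With 1 TSS per gene 32.9% of domains held a TSS, and 82.5% of TSS pieces and 25.6% of others had Kbz. With protein-coding TSSs these were 35.3%, 76.5% and 25.1%. With at least 50% of the Kbz peak inside, 32.0% of pieces and 21.7% of other pieces had Kbz.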

Other observations

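The share of control Kac peaks split, among those that met an SB Kac peak, was lowest on chromosome 4 at 2.55% (1.91 to 3.39; 45 of 1765) and highest on chromosome 21 at 6.26% (4.59 to 8.48; 38 of 607). On chromosome 1 it was 6.06% (5.43 to 6.76; 297 of 4901), whereas 3.86% (3.36 to 4.42; 196 of 5079) of SB Kac peaks there lay on 2 or more control Kac peaks, with no overlap of the intervals. The intervals were also apart on chromosome 19, at 5.06% (4.18 to 6.11) and 3.30% (2.61 to 4.17). Peak length moved with this in part, since the median length of these control Kac peaks was 1859 bp on chromosome 1, the longest, 1686 bp on chromosome 21 and 1623 bp on chromosome 4, and its part was not tested. On chromosome 4 the exchanged share was 3.81% (3.0 to 4.81), above that of the domains, and those intervals overlapped.

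Start sites left in gaps belonged to protein-coding genes less often than those in pieces. The share over all start sites in control Kac peaks was not taken. With 1 canonical TSS per gene, 64.4% (60.8 to 67.9; 460 of 714) of those in pieces belonged to protein-coding genes, against 46.7% (39.2 to 54.3; 77 of 165) of those in gaps. In split SB Kac peaks the share was 73.6% (68.4 to 78.1; 231 of 314) in gaps. In 162 of the 887 domains with a TSS, 18.3% (15.9 to 20.9), the start sites were of lncRNA genes with no protein-coding gene. In split SB Kac peaks with a TSS this was so in 91 of 917, 9.92% (8.15 to 12.0).

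Of the other motifs searched on both strands in windows of 300 bases, GGAATG (TEAD) was in 18.97% (17.5 to 20.5) of pieces without a TSS and 16.8% (15.1 to 18.6) of gaps without a TSS, and CCAAT (NF-Y) in 28.2% (26.5 to 29.9) and 30.5% (28.4 to 32.7), with overlapping intervals. TGTGGTT (RUNX) was in 5.53% (4.74 to 6.44) and 4.25% (3.41 to 5.29), TGTTTAC (FOX) in 4.30% and 3.41%, and CCGGAAG (ETS) in 1.88% and 1.34%. In TSS pieces CCGGAAG was in 5.28% (3.95 to 7.01), in TSS gaps in 1.77% (0.757 to 4.07), and in 6.96% of all SB Kac peaks with a TSS.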
